A study of Mus musculus with 2 samples.

Results

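Antigen presentation and interferon response genes were followed in single cells of mouse pancreatic islets. The 34 genes were taken as a list of symbols, and all of them were found among the 22383 features of the count matrices. The list was chosen with earlier results of these data known, so it is not independent of them. The study that reported the data names Lgals3bp as high in a β-cell cluster found almost only in TBL/RβKO cells. They fall into 5 groups by role: 5 MHC class I chains, 6 genes of peptide loading and the immunoproteasome, 5 regulators, 14 interferon-induced effectors and 4 genes of MHC class II.

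Islets came from 5-week-old mice on a C57BL/6N background. TBL/RβKO mice carried floxed alleles of Tbl1x and Tbl1xr1, a pair of related transcription co-factors, together with a Cre recombinase placed in the endogenous Ins1 locus, which drives it in β-cells. Their littermates without Cre, labelled wildtype, served as controls, and the sources used here do not say whether these also carried the floxed alleles. In each group 150 islets pooled from 4 mice were cultured overnight at 37 °C with 10% serum, dissociated and turned into 1 Chromium 3′ library. With 1 library per group there was no replicate, so no difference between the libraries could be tested, and every interval given below is a 95% interval that covers counting error only.

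MHC class I molecules carry peptides from inside the cell to its surface, where CD8 T cells read them. The immunoproteasome cuts these peptides, the TAP transporter moves them into the endoplasmic reticulum, and tapasin helps to load them. Interferons raise this whole machinery, and type I and III interferons also switch on antiviral effectors through STAT2 and IRF9, which act at a promoter element named ISRE. MHC class II, in contrast, is a feature of macrophages, B cells and dendritic cells. In islets, high class I and interferon-induced genes in β-cells are known from autoimmune diabetes.

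The control library held 7067 barcodes with 241434108 unique molecular identifiers (UMIs), and the library labelled TBL/RβKO held 5833 barcodes with 185062206 UMIs. Barcodes with over 2500 detected genes and under 10% mitochondrial UMIs were kept, which left 4747 and 4179. The libraries shared 14 barcode sequences, 12 of them among kept barcodes, and these were left in place. Kept barcodes were put into hormone classes by the hormone with most UMIs (Ins1 and Ins2 for β, Gcg for α, Sst for δ, Ppy for PP), if it reached 100 UMIs per 10000. This gave 2877 control and 1338 TBL/RβKO barcodes in the β class, 1284 and 1546 in the α class, 223 and 374 in the δ class, 259 and 495 in the PP class, and 104 and 426 barcodes without a hormone. Insulin made up 49.6% of the UMIs of the control β class and 27.9% in the other library, where the β class was also deeper, with a median of 67897 UMIs per barcode against 53346.

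The deleted genes went against the label. Levels are given in CPM, the UMIs of a gene scaled to a total of 1e6 UMIs. Tbl1x stood at 96.9 CPM in the control β class and at 351 CPM in the library labelled TBL/RβKO, and Tbl1xr1 at 20 and 129 CPM. UMIs from the 3′ end of a transcript need not cover a deleted exon, and the position of the floxed exons was not given in the sources used here, so these values do not check the deletion. Cre, which was counted through 2 features of its own, had 0 UMIs in the control β class and 3107 in the other. The second library is therefore called the library labelled TBL/RβKO, and directions below are those between the libraries as labelled.

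Levels are CPM of all UMIs of a class. Differences are given as the log2 ratio of CPM, TBL/RβKO over control, relative to the median log2 ratio of all genes tested in that class, which was 0.30 in the β class, 0.10 in the α class, 0.01 in the δ class, 0.24 in the PP class and 0.03 without a hormone. A gene was tested if the mean of its 2 CPM values was at least 5, and was called higher or lower at 2-fold or more on this relative scale.

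In the β class, 23 of the 34 members passed the filter. The members called higher were the 3 interferon-induced genes Ifit1, Rsad2 and Lgals3bp, against 4.14% of the 9398 genes tested. Ifit1 and Rsad2 were below 5 CPM in control and passed the filter through the library in which they were high, so no weight is put on this count. The members called lower were the 4 MHC class II genes, against 2.14% of the genes tested. The remaining 16 tested members, among them MHC class I, loading genes and regulators, stayed within 2-fold. The median over the tested members was 0.10 (the interval of the middle member being 0.07 to 0.12), where the median of all genes is 0 by construction.

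**Figure D1:**
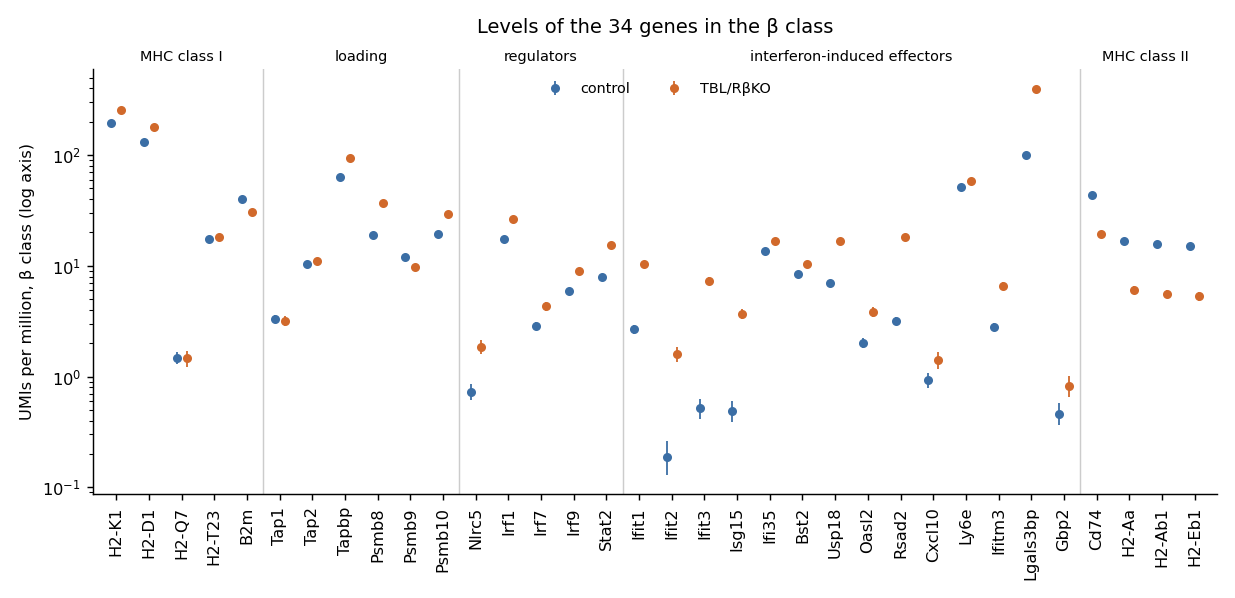
CPM of each of the 34 genes in the β class (vertical axis, log scale), for the control library (blue) and the library labelled TBL/RβKO (orange), grouped by role, with exact Poisson intervals as bars. Ifit3, Ifit2 and Isg15, which did not pass the filter, and Rsad2, Lgals3bp and Ifit1, which did, stood apart upward and the 4 class II genes downward, while H2-K1 went from 195 to 256 CPM.

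In the α class, 25 members passed the filter. Ifitm3 was called higher, against 0.724% of the 10220 genes tested, though it passed the filter only through the library in which it was high, and the 4 class II genes were called lower, against 0.186%. Of these, H2-Aa, H2-Ab1 and H2-Eb1 passed the filter only through the control library. The median over the tested members was 0.07 (-0.04 to 0.19).

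**Figure D2:**
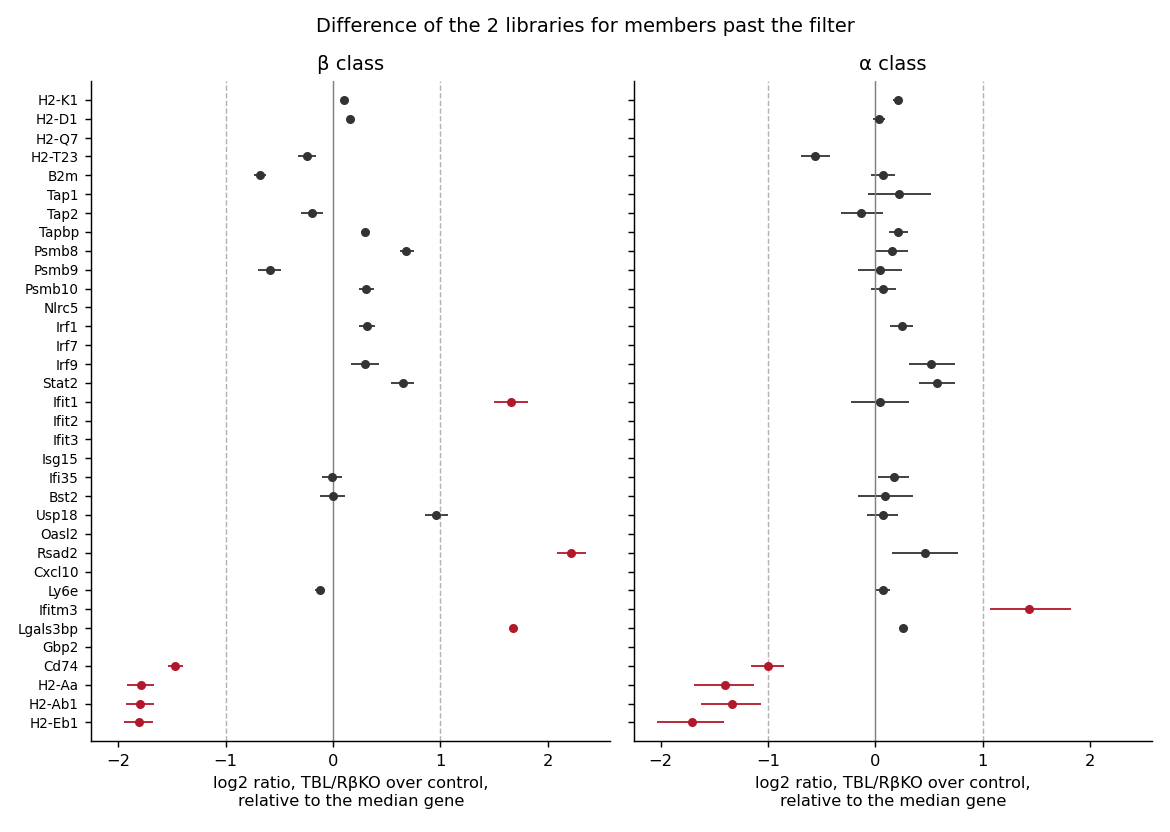
Relative log2 ratio of each member that passed the filter, in the β class (left) and the α class (right), with exact conditional binomial intervals as bars, dashed lines at 2-fold and members past 2-fold in red. Members below the filter have no point. In both classes most points lay between the dashed lines, and the 4 class II genes lay below them.

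Some of the promoters of these genes are shown first, because the effectors described below often share a sequence element that was found for no class II or loading gene with an entry. In the RefSeq promoter table for GRCm38.p6, which holds 300 bases around each start, 28 of the 34 members had an entry. An ISRE core, spelled GAAANNGAAA and searched on both strands, was present for 11 of these 28, compared with 3.99% of the 27025 genes of the table. It was found for 8 of the 12 effectors with an entry, 2 of 5 class I genes (H2-T23 and B2m), 1 of 4 regulators (Stat2), 0 of 5 loading genes and 0 of 2 class II genes. Lgals3bp had no match in its window. The windows below start and end 12 bases beyond the outermost match, lie wholly outside the gene, are written 5′ to 3′ on the strand of the gene, and carry the matches in capitals, where TTTC marks a match on the opposite strand. A position is given for GRCm39, the build of the count matrices, in which each window was found once.
Ifit1, chr19:34618173-34618225, plus strand: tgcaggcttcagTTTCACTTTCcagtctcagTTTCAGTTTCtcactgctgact
Isg15, chr4:156285320-156285365, minus strand: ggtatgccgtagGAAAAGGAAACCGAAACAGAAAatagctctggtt
Rsad2, chr12:26506550-26506583, minus strand: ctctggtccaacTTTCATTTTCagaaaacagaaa
Bst2, chr8:71990219-71990258, minus strand: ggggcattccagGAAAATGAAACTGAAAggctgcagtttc
Stat2, chr10:128106133-128106166, plus strand: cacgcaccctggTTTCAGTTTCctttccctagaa
Cxcl10, chr5:92496940-92496973, minus strand: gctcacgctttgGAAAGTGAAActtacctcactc
Ifit1 carried 2 separate matches, Bst2 carried 2 that overlap and Isg15 carried 3 that overlap. A further element, the Y box of MHC promoters, spelled CTGATTGG and searched on both strands, was present for 9 of the 28 members compared with 4.7% of the genes of the table. These were 4 of 5 class I genes, 2 of 5 loading genes, both class II genes with an entry, and Cxcl10. The window of H2-Aa stands for this element.
H2-Aa, chr17:34506829-34506860, minus strand: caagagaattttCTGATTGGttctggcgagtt
A GAS core, spelled TTCNNNGAA and read on both strands, was present for 6 of the 28 members and for 9.55% of the genes of the table. A match is a string of letters and not a shown binding site.

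MHC class I chains were close to the median gene in the β class. H2-K1, a classical class I heavy chain encoded on chromosome 17 (34214987 to 34219321), had 35591 UMIs or 195 CPM in control β barcodes and 25898 UMIs or 256 CPM in the other library, a relative log2 ratio of 0.10 (0.07 to 0.12). H2-D1, the other classical heavy chain measured, went from 130 to 179 CPM (0.16, 0.14 to 0.19). H2-T23, a non-classical chain that presents leader peptides to natural killer cells, was at 17.6 and 18.3 CPM (-0.24, -0.33 to -0.16). All 3 moved by far less than 2-fold, and H2-Q7 stayed below the filter at 1.47 and 1.46 CPM.

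B2m, the light chain that every class I molecule needs, was lower than the median gene in the β class, at 40.2 CPM in control and 30.7 CPM in the other library (-0.68, -0.74 to -0.62). Part of its UMIs lay in barcodes that also carried markers of non-endocrine cells. Such barcodes, with at least 10 UMIs per 10000 over a list of macrophage, B cell, T cell, dendritic, endothelial, stromal, ductal or Schwann markers and at least 3 genes of that list, numbered 61 of 2877 in the control β class and 43 of 1338 in the other. Their kinds differed between the libraries. From control to the other, 32 and 4 passed as macrophage, 21 and 3 as endothelial, 7 and 12 as stromal and 0 and 4 as B cell. The rest passed through the other lists. Together the marker-rule barcodes held 31.5% of the B2m UMIs of the control β class and 14.7% of those of the other. Without them B2m stood at 27.8 and 27.3 CPM, a ratio of -0.32 (-0.39 to -0.25).

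Across hormone classes, class I levels were compared as CPM with the 5 hormone genes left out of the total, leaving out the barcodes with non-endocrine markers. H2-K1 in the control library was highest in PP barcodes at 502 (486 to 519), followed by δ at 407 (389 to 426), β at 389 (385 to 393) and α at 282 (275 to 289). The δ and β intervals overlapped, while PP stood above and α below them. In the library labelled TBL/RβKO the δ and PP values, 437 (423 to 451) and 423 (413 to 433), overlapped, and β at 369 (364 to 374) and α at 327 (320 to 334) lay below. Over all 34 members of the control library, PP was the highest of the 4 hormone classes for 15 and α the lowest for 16. In the other library δ was the highest for 16 and PP for 8, and β and α were each the lowest for 13. These ranks include members with few UMIs, such as Ifitm3 with 1 in the control PP class and Isg15 with 6 in the control α class. The counts are therefore not a class order beyond counting error.

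In the PP class, H2-T23 was the member called lower, at 78.7 CPM in control and 43.3 CPM in the other library (-1.11, -1.24 to -0.97). It was found in 85.7% of the control PP barcodes and in 69.1% of the others, and in 53.1% and 34.3% after each barcode was thinned to 10000 UMIs. Of the 31-base words in the last 500 bases of its transcript, 67.7% also occur in transcripts of other genes, so its UMIs are uncertain. The same share was 27% for H2-D1, 23% for H2-Q7 and 8.51% for H2-K1. In the δ class H2-Q7 was called higher, at 3.54 and 8.77 CPM (1.26, 0.57 to 2.09) from 19 and 91 UMIs.

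No gene of peptide loading was called higher or lower in a hormone class. In the β class 5 of the 6 passed the filter and none reached 2-fold. Tapbp, which encodes tapasin, had the highest control level of the group, at 62.7 CPM, with 94.9 CPM in the other library (0.30, 0.26 to 0.34). Psmb8, a catalytic subunit of the immunoproteasome, showed the largest difference of the group, from 18.8 to 37.1 CPM (0.68, 0.62 to 0.75). Psmb9, another catalytic subunit, leaned the other way, from 12 to 9.75 CPM (-0.59, -0.70 to -0.48). Psmb10, the third catalytic subunit, went from 19.4 to 29.5 CPM (0.31, 0.24 to 0.38). The immunoproteasome subunits thus did not move together in the β class. In the α class the same 3 subunits lay between 0.04 and 0.15, and the group as a whole between -0.13 and 0.22.

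Psmb8 and H2-K1 differed in how they followed insulin content. On the scale of CPM without hormones, Psmb8 in control β barcodes stood at 35.9 (34.6 to 37.3) where insulin reached at least 3000 UMIs per 10000 and at 41.9 (37.4 to 46.8) between 1000 and 3000. TBL/RβKO barcodes gave 44.7 (42 to 47.5) and 59.6 (57 to 62.3), so Psmb8 was higher there in both ranges, by less than 2-fold. Below 1000 the order was the other way, at 112 and 55.3, but without marker-rule barcodes the values were 40.3 (30 to 53) and 53.3 (49.3 to 57.6), whose intervals overlap. H2-K1 was at 396 (391 to 400) and 397 (389 to 405) at high insulin and at 376 and 374 at middle insulin, which overlap within counting error. Below 1000, without marker-rule barcodes, it was at 178 (156 to 203) in 113 control barcodes and 314 (304 to 324) in 230 others, and these barcodes differed in depth, with a median of 3049 and 7171.5 genes.

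Of the 5 regulators, 3 passed the filter in the β class. Irf1, a transcription factor of the interferon-γ response, had the highest control level of the group at 17.3 CPM and was at 26.5 CPM in the other library (0.32, 0.24 to 0.39). Stat2, which carries the type I and III interferon signal, went from 7.99 to 15.4 CPM (0.65, 0.54 to 0.75), and Irf9, its DNA-binding partner, from 5.9 to 8.93 CPM (0.30, 0.17 to 0.43). Irf7, the amplifier of type I interferon, and Nlrc5, the transactivator of class I genes, were below the filter at 2.88 and 4.29 CPM and at 0.73 and 1.85 CPM. In the PP class Stat2 was called higher, from 9.28 to 22.3 CPM (1.01, 0.71 to 1.34).

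Rsad2 encodes viperin, an antiviral enzyme, and lies on chromosome 12 (26492745 to 26506451). It had 577 UMIs or 3.17 CPM in control β barcodes and 1837 UMIs or 18.2 CPM in the library labelled TBL/RβKO (2.22, 2.09 to 2.36). Ifit1, an RNA-binding protein that blocks translation of viral RNA, lies on chromosome 19 (34618271 to 34632174) and went from 484 UMIs or 2.66 CPM to 1040 UMIs or 10.3 CPM, a ratio of 1.66. Ifit3, Ifit2 and Isg15, which are named here after their values were seen because they fell below the filter, went from 0.516 to 7.29 CPM, from 0.187 to 1.59 CPM and from 0.489 to 3.7 CPM. Ifit3 shares 21.4% of its 3′ words with other genes, mainly Ifit3b, so its UMIs are uncertain. The same holds for Irf9, with 33.4% shared, mainly with Dsn1, and for Ifitm3, with 29.8% shared. Usp18, which removes ISG15 from proteins and restrains the interferon receptor, went from 7.01 to 16.7 CPM (0.96, 0.86 to 1.07), just under 2-fold.

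Most UMIs of Ifit1, Ifit2, Ifit3, Isg15 and Rsad2 in the library labelled TBL/RβKO lay in few β barcodes. These 5 genes were summed per barcode, a set and a limit of 20 UMIs that were chosen after the values were seen. In the control β class 1 of 2877 barcodes reached 20 UMIs (0.0348%, exact binomial interval 0.00088 to 0.194%), and that barcode held exactly 20 and passed the endothelial marker rule. In the library labelled TBL/RβKO 23 of 1338 did (1.72%, 1.09 to 2.57%), with up to 547 UMIs in a barcode, and they held 3292 of the 4148 UMIs of the 5 genes in that class, or 79.4%. None of the 5 genes was seen in 71.8% of control β barcodes and in 68.5% of the others. The 23 barcodes had a median of 62367 UMIs and 7087 genes, close to the 67897 and 7116.5 of their class. Of these, 2 passed the marker rule, both as stromal, 5 had a Cre UMI, and their insulin ranged from 269 to 5545.8 UMIs per 10000.

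**Figure D3:**
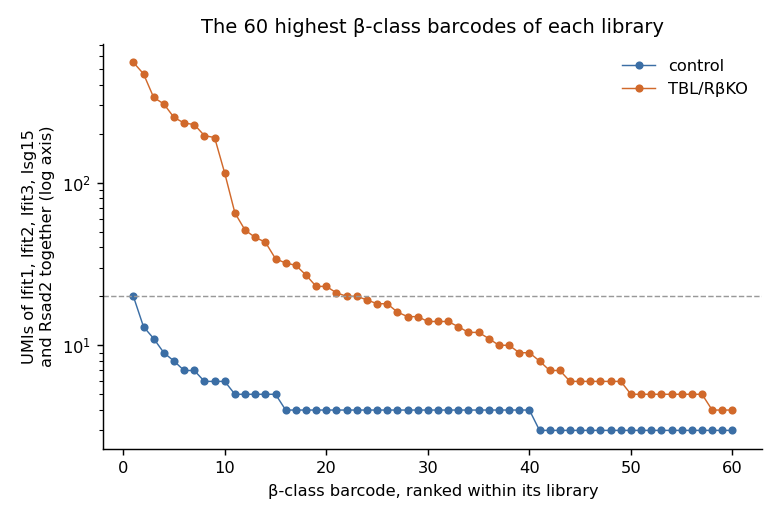
UMIs of Ifit1, Ifit2, Ifit3, Isg15 and Rsad2 together (vertical axis, log scale) in the 60 highest β-class barcodes of each library, ranked within the library, with a dashed line at 20 UMIs. The curve of the library labelled TBL/RβKO starts at 547 UMIs and crosses the line at rank 23, while the control curve starts at 20.

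Other members were also high in these 23 barcodes as summed, compared with the 1315 other β barcodes of the same library. Oasl2, an antiviral protein of the oligoadenylate synthetase family, was at 102 CPM (87.5 to 118) against 2.14, Irf7 at 61.3 CPM (50.1 to 74.1) against 3.3, and Cxcl10, a chemokine that draws T cells, at 67.7 CPM against 0.262. The Cxcl10 UMIs came from 8 of the 23 barcodes, and 1 of these held 71 of the 116. Usp18 stood at 149 CPM against 14.5, Bst2, which tethers budding virions to the membrane, at 111 CPM against 8.58, and Stat2 at 113 CPM against 13.7. The 23 barcodes were not alike. Oasl2 was seen in 19 of them, Irf7 in 18, Usp18 in 20 and Stat2 in 19. One barcode held 43 UMIs of Rsad2 and 0 of Ifit1, Ifit2, Ifit3, Isg15, Usp18, Oasl2, Irf7 and Stat2. Another held 21 UMIs of Rsad2 and 0 of Ifit1, Usp18, Oasl2 and Irf7. The machinery of antigen presentation followed at smaller ratios. Tap1, a TAP transporter chain, was 7.09-fold higher, Psmb9 3.76-fold, B2m 3.63-fold and Psmb8 3.1-fold, and H2-K1 was at 352 CPM (325 to 382) against 255 (252 to 258), a ratio of 1.38. Lgals3bp was at 429 CPM (398 to 461) against 394 (390 to 398), a ratio of 1.09. The 23 barcodes were picked by 5 of the members, so the values of those 5 follow from the choice and none of these ratios is a test.

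The values without the barcodes of 20 or more UMIs were as follows. Rsad2 stood at 3.09 CPM in control and 3.89 CPM in the other library (0.04, -0.15 to 0.23), and Ifit1 at 2.66 and 2.41 CPM (-0.43, -0.67 to -0.21), both below the filter. Isg15 was left at 0.461 and 0.957 CPM and Ifit3 at 0.511 and 1.03 CPM. Usp18 stood at 7.01 and 14.5 CPM (0.75, 0.64 to 0.86), Psmb8 at 18.8 and 35.8 CPM (0.64, 0.57 to 0.71) and Stat2 at 7.99 and 13.7 CPM (0.48, 0.38 to 0.59).

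Barcodes of this kind were not confined to the β class. In the α class 0 of 1284 control and 4 of 1546 TBL/RβKO barcodes reached 20 UMIs, in the δ class 1 of 223 and 3 of 374, in the PP class 0 of 259 and 7 of 495, and without a hormone 3 of 104 and 7 of 426. Over all kept barcodes the counts were 5 of 4747 (0.105%, 0.0342 to 0.246%) and 44 of 4179 (1.05%, 0.766 to 1.41%). The single δ barcode with 373 UMIs held most of the δ signal of its library.

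In the δ class 29 members passed the filter. Ifit1 (10.6 and 23.8 CPM, 1.14), Ifit3 (8.58 and 17.7 CPM, 1.02), Rsad2 (4.66 and 10.9 CPM, 1.19) and H2-Q7 were called higher, against 0.926% of the genes tested, and the 4 class II genes were called lower, against 0.62%. Rsad2 and H2-Q7 were below 5 CPM in control, and the class II genes other than Cd74 below 5 CPM in the other library, so these passed through the library in which they were high. Without the barcodes of 20 or more UMIs these 3 effectors stood at 8.98 and 8.55, 5.61 and 4.08, and 4.3 and 3.59 CPM. Those barcodes were picked by these effectors among others, so the values follow in part from the choice.

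Among PP barcodes 21 members passed the filter. The 4 called higher were Stat2, Ifit3 (1.89 and 10.8 CPM, 2.23), Rsad2 (0.901 and 10.2 CPM, 3.19) and Ifitm3, against 4.24% of the genes tested, and H2-T23 was called lower, against 1.26%. Ifit3, Rsad2 and Ifitm3 passed the filter only through the library labelled TBL/RβKO, so nothing is read from this count. The 7 barcodes of 20 or more UMIs held 74.2% of the UMIs of the 5 genes in the PP class. Without them Ifit3 stood at 1.89 and 1.99 CPM, Rsad2 at 0.901 and 2.77 CPM and Ifit1 at 9.28 and 4.75 CPM (-1.21, -1.62 to -0.79). The barcodes left out were picked by the 5 genes, and none was a control barcode. This choice by itself lowers the 5 genes in the other library, so no difference is read from their values. Stat2 stood at 9.28 and 19.9 CPM (0.86, 0.55 to 1.19). Cxcl10 had 0 UMIs in the control PP class, which allows up to 0.27 CPM, and 11 UMIs or 0.524 CPM in the other.

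Ifitm3, which stops viruses from entering through endosomes, was called higher in the α class, from 79 UMIs or 2.74 CPM to 267 UMIs or 7.96 CPM (1.43, 1.07 to 1.82). It was found in 1.64% of control α barcodes and in 3.04% of the others. Barcodes passing the non-endocrine marker rule held 75.9% and 76% of these UMIs, and without them Ifitm3 was at 0.668 and 1.93 CPM, below the filter. Among PP barcodes it went from 1 UMI to 224 UMIs (6.06, 4.15 to 11.96), of which 78.1% lay in marker-rule barcodes. The stromal marker list was also higher, while other lists went either way. All 8 of its genes were detected in the α class of the library labelled TBL/RβKO, at 71.1 CPM in sum, compared with 7 of 8 at 26.5 CPM in control, where Pdgfra was at 0. In the PP class the list summed to 131 CPM against 5.04 CPM, with Col1a1, Col3a1, Dcn, Pdgfra and Lum at 0 in control. From control to the other library, the endothelial list went from 44.7 to 15.6 CPM in the α class and from 16.4 to 11.4 CPM in the PP class. In the α class the macrophage list went from 71.7 to 32.8 CPM and the B cell list from 3.93 to 20.8 CPM.

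The remaining effectors of the β class were nearer the median gene. Ly6e, a membrane protein that restricts coronavirus entry, was at 51.9 and 58.7 CPM (-0.12, -0.17 to -0.07). Ifi35 was at 13.7 and 16.7 CPM (-0.01, -0.10 to 0.08). Bst2 was at 8.43 and 10.3 CPM, and 50.9% of its control and 17.4% of its other UMIs lay in marker-rule barcodes. Without these it stood at 4.18 and 8.86 CPM (0.79, 0.65 to 0.93).

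Among the members called higher in the β class, Lgals3bp alone did not have most of its UMIs in few barcodes. It encodes a secreted glycoprotein that binds galectins, lies on chromosome 11 (118280716 to 118292918), and had the highest control β level among the effectors. It had 18322 UMIs or 101 CPM in the control β class and 39845 UMIs or 395 CPM in the library labelled TBL/RβKO (1.68, 1.65 to 1.70). At least 1 UMI was found in 94.1% of control and 98.4% of the other β barcodes, and in 59.7% and 92.7% after thinning to 10000 UMIs. As a background, 18 of 71 barcodes with B cell markers had an Lgals3bp UMI, at a median of 16795 UMIs per barcode. The highest 1% of barcodes held 4.7% and 3.52% of the UMIs, whereas the highest 1% held 17.3% and 74.3% for Rsad2. For Usp18 and Stat2, which stayed under 2-fold, it held 8.39% and 13.6%, and 8.52% and 12%.

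The Lgals3bp difference was found at every insulin content. As CPM without hormones it stood at 205 (201 to 208) in control and 495 (486 to 505) in the other library among β barcodes with at least 3000 insulin UMIs per 10000. It was at 219 (209 to 230) and 623 (615 to 631) between 1000 and 3000, and at 136 (120 to 153) and 581 (568 to 594) below 1000. Leaving out the barcodes with 20 or more UMIs of the 5 effectors left it at 101 and 394 CPM, and leaving out the marker-rule barcodes at 100 and 394 CPM.

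**Figure D4:**
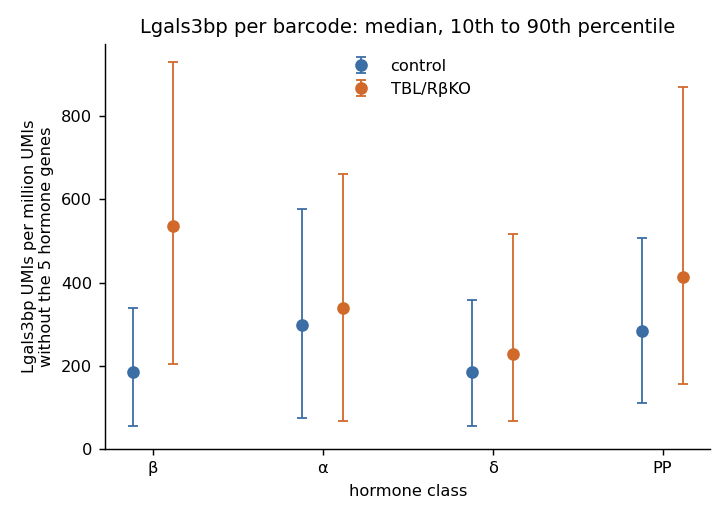
CPM of Lgals3bp with the 5 hormone genes left out of the total (vertical axis) in single barcodes of each hormone class, with points at the median over barcodes and bars from the 10th to the 90th percentile. The β medians were 184 in control (blue) and 535 in the library labelled TBL/RβKO (orange), and the α medians 297 and 338.

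The other hormone classes showed smaller Lgals3bp differences. It was at 243 and 311 CPM in the α class (0.26, 0.22 to 0.30), at 170 and 254 CPM in the δ class (0.57, 0.46 to 0.68) and at 204 and 402 CPM in the PP class (0.73, 0.66 to 0.80). The intervals of the 4 classes did not overlap for β against each of the others. Without hormones in the total and without marker-rule barcodes, β stood below α and PP in control, at 204 (201 to 207) against 311 and 316 and within the interval of δ at 196 (183 to 209), and it was the highest in the other library, at 575 (570 to 581) against 511 (500 to 522) in PP. Between libraries the non-hormone barcodes had 65.7 and 72 CPM.

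The 4 MHC class II genes were lower in the β class of the library labelled TBL/RβKO. Cd74, the invariant chain that guides class II molecules, went from 43.6 to 19.4 CPM (-1.47, -1.54 to -1.40). The chain genes H2-Aa, H2-Ab1 and H2-Eb1 went from 16.9 to 6.01, from 15.7 to 5.53 and from 15.1 to 5.29 CPM, at ratios between -1.81 and -1.79. The 4 genes stood nearly in step. Cd74 was found in 8.13% of control and 8.37% of the other β barcodes, so the share of barcodes did not follow the level.

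Nearly all of these UMIs lay in barcodes with markers of non-endocrine cells. The 61 control barcodes held between 95.7% and 96.4% of the class II UMIs of their β class, and the 43 others between 85.7% and 91%. The macrophage list moved with the class II genes, while other lists went either way. All 11 macrophage markers were detected in both β classes, at 101 CPM in sum in control and 32.7 CPM in the other library. The rule for macrophages was passed by 32 of the 61 control barcodes but 4 of the 43 others. The endothelial list went from 29.2 to 22.1 CPM. The B cell list rose from 13.3 to 22.8 CPM, the stromal list from 22.6 to 80.3 CPM and the ductal list from 159 to 502 CPM. Without the marker-rule barcodes Cd74 stood at 1.88 CPM (control) and 1.8 CPM, H2-Aa at 0.621 and 0.618, H2-Ab1 at 0.582 and 0.824 and H2-Eb1 at 0.632 and 0.535, all below the filter. No class II gene was called in the β class without them, and none with a hormone threshold of 500 UMIs per 10000, where their ratios were -0.49 to -0.22. With fewer than 6000 genes per barcode the ratios were -5.67 to -5.02.

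**Figure D5:**
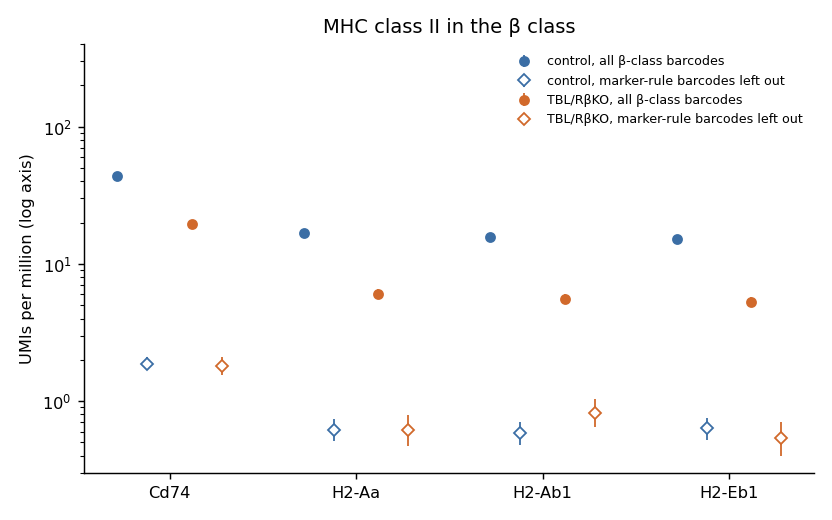
CPM of the 4 MHC class II genes in the β class (vertical axis, log scale), for the control library (blue) and the library labelled TBL/RβKO (orange), over all barcodes (filled circles) and without barcodes that pass the non-endocrine marker rule (open diamonds), with exact Poisson intervals. The filled points lay between 5.29 and 43.6 and all open points at or below 1.88.

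The same held in the α class, where Cd74 went from 30.5 to 16.3 CPM (interval of the ratio -1.16 to -0.85) and H2-Eb1 from 11.3 to 3.7 CPM (-1.71, -2.03 to -1.41). The 10 marker-rule barcodes of control held 94% of the Cd74 UMIs and the 11 of the other library 88.5%, and without them Cd74 was at 1.86 and 1.9 CPM. H2-Aa and H2-Ab1 lay between, at -1.40 and -1.34. With fewer than 6000 genes per barcode all 4 ratios turned positive, from 0.82 to 1.18. In the δ class 1 marker-rule barcode of control held 91.4% of the Cd74 UMIs, and the level went from 45.5 to 6.65 CPM (-2.78). In the PP class, which had 0 marker-rule barcodes in control, the class II genes were all below the filter.

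Among barcodes without a hormone, 31 members passed the filter. The 5 called higher were Psmb9 (1.02), Nlrc5 (1.48), Usp18 (1.16), Cxcl10 (2.38) and Ly6e (1.21), against 12% of the genes tested, and the 5 called lower were the class II genes, between -1.34 and -1.06, and Rsad2, against 7.68%. Nlrc5 and Cxcl10 were below 5 CPM in control and passed through the library in which they were high, so no weight is put on the count of higher members. In that library 4 barcodes held 101 of the 111 Cxcl10 UMIs, and in control 1 barcode held 73 of the 240 Rsad2 UMIs. This class is a mixture whose makeup differed between the libraries, since barcodes with B cell markers numbered 0 in control and 71 in the other over all classes, those with stromal markers 35 and 117, and those with macrophage markers 72 and 58. Comparing 1 marker type at a time, Cd74 in macrophage-marker barcodes was at 10024.8 and 10119.1 CPM, and B2m at 2227.9 and 2274.9 CPM. These sets were not alike. Of the macrophage-marker barcodes, 32 of 72 in control and 4 of 58 in the other library lay in the β class. Their median insulin was 97 and 18 UMIs per 10000. The class II level of macrophage-marker barcodes differed little between the libraries as summed, and what this mixture does to it was not tested. Rsad2 in endothelial-marker barcodes was at 105 CPM in control, from 173 UMIs of which 66 lay in 1 barcode, and at 67.2 CPM in the other library.

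Stromal-marker barcodes, described here after their values were seen, differed between the libraries for some of these genes. Isg15 was at 7 CPM in control and 63.4 CPM in the other library, Irf7 at 1.75 and 30.1 CPM and Ifit3 at 2.62 and 15.1 CPM. Rsad2 was at 5.25 and 2.68 CPM, with overlapping intervals (1.93 to 11.4 and 1.47 to 4.5), and H2-K1 at 286 and 292 CPM. The Isg15 UMIs came from 44 of 117 barcodes, and 1 barcode held 86 of the 331. For Ifit3 1 barcode held 29 of the 79 UMIs.

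Macrophage-marker barcodes exceeded β barcodes for class I by a factor that differed between genes. With marker-rule barcodes left out of the β class, B2m was 80.1-fold higher in control (77 to 83.4) and 83.4-fold in the other library (79.1 to 87.9). H2-D1 was 10.1-fold and 9.7-fold higher and H2-K1 4.32-fold and 4.26-fold. H2-Q7 differed more between the libraries, at 42.3-fold (32.4 to 54.8) and 85.4-fold (66.9 to 109). In endothelial-marker barcodes B2m was 26-fold and 29.1-fold higher than in β barcodes.

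Other genes of the pathway were read from a wider list of receptors, ligands, JAK and STAT signalling, nucleic acid sensors, further effectors, chemokines and processing genes, 96 of them measured. In the β class 55 of them passed the filter, 1 was called higher, 3 were called lower and their median was 0.01, beside 4.14% and 2.14% over all genes tested. Each called gene was below 5 CPM in the library in which it was low and passed the filter through the other, so nothing is read from these counts. Cd274, which encodes the checkpoint ligand PD-L1, was the one higher, from 601 UMIs or 3.3 CPM to 1405 UMIs or 13.9 CPM (1.78, 1.64 to 1.92). It was seen in 17.4% and 48.4% of β barcodes, and in 3.46% and 11.8% after thinning. It was at 12.7 CPM without the barcodes of 20 or more UMIs of the 5 effectors (1.65, 1.51 to 1.79), and at 84.6 CPM in those barcodes. In the PP class Cd274 was also called higher (1.71), and in the α class it was at 10.7 and 12.3 CPM.

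The 3 lower genes of that list were the chemokine Ccl5 (27.1 and 3.19 CPM, -3.38), the chemokine Cxcl16 (6.88 and 3.26 CPM, -1.37) and Ctss, a protease that trims the invariant chain (9.61 and 2.79 CPM, -2.08). For Ccl5 and Ctss, 93.7% and 96.4% of the control UMIs lay in marker-rule barcodes, and for Cxcl16 20.3%. Without these barcodes Cxcl16 stood at 5.54 and 2.26 CPM (-1.58, -1.80 to -1.37), below the filter. Also below it, Ccl5 stood at 1.72 and 0.504 CPM (-2.05, -2.53 to -1.62) and Ctss at 0.349 and 0.329 CPM (-0.37, -1.04 to 0.26). In the α class 54 genes of the list passed the filter, 1 was called higher and 1 lower, beside 0.724% and 0.186% over all genes tested. These were Socs3, a feedback inhibitor of cytokine signalling (1.12), and Ccl5 (-2.11). Ccl5 was at 11.6 and 2.86 CPM there and passed the filter only through the control library. Socs3 had ratios of 1.15 in the δ class, 0.84 in the PP class and 0.80 in the β class.

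The genes of this list with the highest control β levels were the chaperones of peptide loading. Calr was at 266 and 340 CPM, Pdia3 at 235 and 283 CPM and Canx at 191 and 284 CPM, with ratios of 0.06, -0.03 and 0.27. The type I interferon receptor chains Ifnar1 and Ifnar2, chosen after their values were seen, had ratios of 0.02 and 0.32. Of the interferons, 4 genes were looked up. Over all barcodes of the matrices Ifnb1, Ifnl2 and Ifnl3 had 0 UMIs in both libraries, which allows up to 0.0124 CPM in control and 0.0162 CPM in the other, and Ifng had 0 and 4 UMIs.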

How the data were processed

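Single-cell RNA-seq of islets was done with the Chromium Single Cell 3′ v3.1 chemistry, 1 library per genotype. The authors deposited raw UMI counts per gene and barcode, for the barcodes called as cells, made with Cell Ranger 7.1.0 on GRCm39 per the submitters' processing notes. The counts were used as deposited, and no count column belonged to a sample outside the series (0). No doublet caller was run, free RNA was not removed, and no upper limit on genes was set.

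Kept barcodes had over 2500 genes and under 10% mitochondrial UMIs. UMIs were summed per library and hormone class and scaled to CPM. Log2 ratios used a prior of 0.5 UMI and were centred on the median of genes with a mean CPM of at least 5. Intervals (95%) are exact Poisson for CPM and exact conditional binomial for ratios. The limit for a count of 0 is 3 UMIs. No test was possible with 1 library per group. A share of barcodes was thinned to 10000 UMIs, which left out 101 control and 9 TBL/RβKO β barcodes. The comparison was tested on simulated counts. Analyses were run in Python 3.11.15 with numpy 2.4.6, scipy 1.17.1 and pandas 2.3.3. Gene positions are from GENCODE M39.

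Named genes were the members past 2-fold in the β or α class, the highest control β member of each role group, all class II members, members at 0 in a hormone class, and the genes of the wider list past 2-fold in the β class or highest in control. Members and lists were chosen with earlier results of these data known. The alternatives are given under the dependence on processing.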

Additional observations from a re-analysis of the deposited data

Results flagged for a closer look

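Rsad2 differed in opposite directions between classes of barcodes. Its relative log2 ratio, TBL/RβKO over control, was 3.19 in the PP class (10 and 214 UMIs) and 2.22 in the β class, and -3.21 in barcodes without a hormone (240 and 85 UMIs). With 1 library per group this difference between classes was not tested. Of the 240 control UMIs without a hormone, 3 barcodes held 73, 66 and 32. The barcode with 73 passed no marker rule, and the other 2 passed the endothelial rule.

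Barcodes outside the filter (2500 or fewer genes, or 10% or more mitochondrial UMIs) entered no comparison of the report. In them Ifit1, Ifit2, Ifit3, Isg15 and Rsad2 together stood at 22.5 CPM (19.5 to 25.8) in 1654 barcodes of the library labelled TBL/RβKO and at 8.05 CPM (6.46 to 9.92) in 2320 control barcodes. The barcodes with 20 or more of these UMIs numbered 3 and 0, and the 3 held 76 of 207 UMIs.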

How the results depend on the processing

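The number of members called higher in the β class was 3 and became 6 with no filter on low values, 1 with a mean CPM of at least 20, 6 at 1.5-fold, and 1 without barcodes of 20 or more UMIs of the 5 effectors, an alternative chosen after the data were seen. In the α class it was 1 and became 8 with no filter, and 0 with a mean CPM of at least 20, without marker-rule barcodes, with free RNA subtracted, with the mean over barcodes, with a hormone threshold of 500 per 10000, and without the barcodes of 20 or more UMIs. The median of the members in the β class was 0.10 and moved to 0.23 with hormones and mitochondrial genes out of the total, 0.39 without centring, 0.23 with no filter, 0.19 with a mean CPM of at least 20, 0.19 with fewer than 6000 genes, 0.31 without marker-rule barcodes, 0.07 without barcodes of a second hormone, 0.04 with free RNA subtracted, 0.05 with the mean over barcodes, 0.30 with a hormone threshold of 500, 0.22 in barcodes with at least 3000 insulin UMIs per 10000, and -0.08 without the barcodes of 20 or more UMIs. In the α class the median was 0.07 and moved to 0.21 with no filter. The cause of these moves was not tested, apart from the smaller or larger set of genes that a filter leaves. Free RNA was taken from barcodes of 2500 or fewer genes, at 6.05% of UMIs in control and 2.25% in the other library, set by the median hormone content of macrophage-marker barcodes, a choice made after some of them proved to carry a full hormone load. It left class II genes of the library labelled TBL/RβKO at 0, so no ratio is given for them.

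With fewer than 6000 genes per barcode the class II genes of the α class turned higher, at 1.18 for Cd74, 1.16 for H2-Aa, 1.16 for H2-Ab1 and 0.82 for H2-Eb1. Cd74 was also not called lower in the α class without centring, nor without the barcodes of 20 or more UMIs. H2-Ab1 in the β class was 0.21 without marker-rule barcodes, and Ifit1 was -0.43 without the barcodes of 20 or more UMIs, which were picked in part by Ifit1 itself. The other values of the class II genes in the β class ranged from -5.67 with fewer than 6000 genes to -0.22 for Cd74 with a hormone threshold of 500. Without centring, Usp18 was also called higher in the β class. With fewer than 6000 genes or with the mean over barcodes Usp18 was called higher and B2m lower. Lgals3bp stayed between 1.48 and 1.97 in the β class under every alternative. No paired analysis was possible because each group has 1 library, and for the same reason no replicate could be left out.

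The mice of a group were pooled, so differences between animals, between the pools and between the library preparations cannot be told apart from genotype.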
